A study of Homo sapiens with 4 samples.

Results

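The deposited table of this study holds 232479 probesets of an Affymetrix exon array, and 13364 of them carry no gene name. Each probeset groups a few probes aimed at the same exon or exon fragment. A probeset was counted as unnamed where its identifier is absent from GEO's platform annotation or has an empty gene symbol there. A further 216780 probesets carry 1 symbol and 2335 carry several. The RNA came from T-47D, an established line of luminal breast cancer cells that express hormone receptors, grown with serum and transfected with TurboFect. On 2 arrays the cells had received a mimic (200 nM) of the artificial microRNA p-27-5p. On the other 2 arrays they had received a pre-miR negative control, whose dose the labels do not give separately. The labels give no time between transfection and extraction, and they do not say whether a group's arrays stem from different cultures. The p-values therefore cover the array-to-array spread alone, and that spread may be technical.

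Exon arrays were designed to read known genes together with less certain transcripts, so they hold probesets for which an annotation gives no symbol. Such a probeset can lie in a known gene that the annotation missed, in a noncoding transcript, in an intron or in DNA that is not transcribed. An introduced microRNA mimic can lower transcripts that pair with its seed, and double-stranded RNA brought into cells can also switch on interferon-stimulated genes. No sequence or genome position of these probesets was used here, so no member is given a gene name. What can be read from the table is each member's level and its place among named probesets in the order of identifiers.

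That order follows the genome closely enough to give each member neighbours. Of 1539 stretches of unnamed probesets numbered between different genes, 1512 had both flanking genes placed in a current RefSeq table, and the flanking genes lay on the same chromosome in 98.7% of those. Of 978 such stretches with a strand for both flanking genes, 96.1% had both on the same chromosome and strand. Most members, 12531, were numbered between probesets of different genes, in the gaps between 1455 pairs of genes. Their median distance in identifier numbers was 57 to the lower named neighbour and 66 to the upper one. A smaller set of 802 members lay between probesets of the same gene, in 335 genes, at median distances of 4 and 3. The last 31 members had identifiers above that of the last named probeset.

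Unnamed probesets were dimmer than named ones. Their median log2 level over the 4 arrays was 5.15, with quartiles of 3.82 and 7.35, against a median of 6.21 and quartiles of 4.11 and 8.42 for probesets with 1 symbol. Levels of different probesets depend on how well their probes bind, so these are array signals and not RNA amounts. Only probesets at or above 4.08, the 25th percentile of all values in the table, were tested. This kept 9268 members, 69.4%, against 75.5% of the probesets with 1 symbol. By place, 8717 of the members between genes, 521 of those inside 1 gene and 30 of those beyond the last named probeset were kept. The 4096 members left out had a median difference of 0.05 (mimic minus control, log2, as are all differences here).

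The arrays were alike in these probesets. The median unnamed level was 5.27 and 5.17 with the mimic and 5.16 and 5.02 with the control. Over all unnamed probesets, values of the same group correlated at r = 0.981 (mimic) and r = 0.980 (control), and values of different groups at 0.967 to 0.976. Named genes of liver and neurons, which these cells should not use, gave a background. The 15 of 16 with a value had a median control level of 4.90 and a highest of 5.84, and 58.7% of the tested members were above that highest level. The label of the cells was checked on 11 luminal breast genes, whose control levels ran from 6.43 to 12.40 with a median of 9.68. Basal, leukocyte and fibroblast markers had median control levels of 5.89, 5.42 and 4.86, and endothelial markers 5.25. Their highest control levels were 6.40, 6.22, 6.83 and 7.17, all above the highest background gene. COL1A1 (6.83) and PECAM1 (7.17) were also above the lowest luminal gene, TFF1 (6.43).

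Few unnamed probesets differed between mimic and control. In limma, with Benjamini-Hochberg adjustment over all 174802 probesets tested, 39 of 9268 passed an adjusted p of 0.05, or 0.421%, against 0.883% of all probesets. Of these, 32 were higher with the mimic, or 0.345% against 0.795% of all probesets, and 7 were lower, or 0.0755% against 0.0881%. That split was not kept under limma's intensity trend, which called 62 higher and 84 lower. The median difference was 0.05 over the unnamed members and -0.03 over all probesets. At an unadjusted p under 0.05 there were 1317 members, or 14.2%, against 15.2% of all probesets. The calls depended on every array. Without mimic array 1 there were 2 higher and 2 lower, without mimic array 2 there was 1 higher and 0 lower at the adjusted threshold, without control array 1 there were 10 and 1, and without control array 2 there were 9 and 2. Of the 17 members with the largest called differences (10 higher and 7 lower), 3 were called without mimic array 1, 1 without mimic array 2, 8 without control array 1 and 8 without control array 2.

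A second count did not rest on the p-value. Members with a difference of 1 or more and both mimic arrays on the same side of both control arrays numbered 215 higher and 168 lower. These are 2.32% and 1.81% of the members, beside 2.31% and 2.31% of all probesets. The 215 higher members fell in 107 stretches of unnamed probesets, and 78 of those stretches held a single such member. The 168 lower members fell in 100 stretches, of which 69 held a single one.

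The 39 calls were gathered in few places. A run of unnamed probesets between HIBCH and STAT4 held 20 of the 32 higher calls, and a run between SETDB2 and ARL11 held 5. A run between ZNF697 and REG4 held 4 of the 7 lower calls. The other 10 calls were single members of 10 stretches. Without the members of the HIBCH to STAT4 run, a set chosen after its values were seen, 19 of 9245 members passed, or 0.206%.

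The share of calls by level shows the same gathering. Between 4.08 and 6, 8 of 4107 members passed, or 0.195%, against 0.755% of named probesets at that level. From 6 to 8 it was 0.349% of 2576 members against 1.23%, and from 8 to 10 it was 0.296% of 1688 against 0.872%. These shares were not tested against each other. At 10 and above the unnamed share was the larger, with 1.90% of 897 members against 0.517%. All 17 of those bright calls belonged to the HIBCH to STAT4 run, and the 3 calls that this run added from 8 to 10 left 2 others there.

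**Figure D1:**
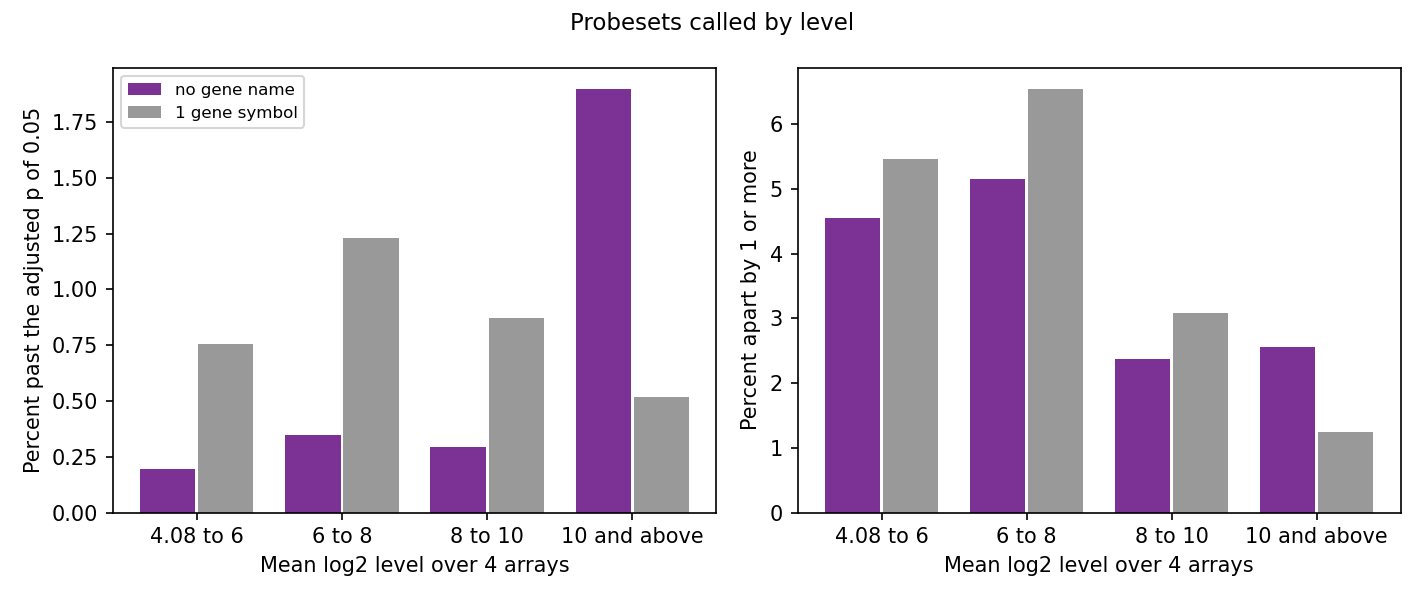
Left, percent of tested probesets past limma's adjusted p of 0.05 by mean log2 level over the 4 arrays, for probesets with no gene name (purple) and with 1 gene symbol (grey). Right, percent with a difference of 1 or more and the mimic arrays apart from the control arrays. Unnamed shares were below named shares up to a level of 10 and above them beyond it, at 1.90% against 0.517% on the left.

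Runs were then tested as units. A run was 3 or more tested unnamed probesets in a row with identifiers at most 50 apart and no other probeset between them. There were 652, holding 8182 tested members, and each run's mean log2 level was fitted in limma together with 15719 gene means. Of these runs, 8 passed the adjusted p of 0.05, or 1.23%, against 2.27% of genes and runs together. Of the 8, 4 were higher and 4 lower, where the shares of all units were 1.48% higher and 0.782% lower. Most runs moved little: 593 of 652, or 91.0%, had a difference within 0.5 in size, and the median run difference was 0.07. The count of called runs was 3 without mimic array 1, 3 without mimic array 2, 39 without control array 1 and 13 without control array 2.

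**Figure D2:**
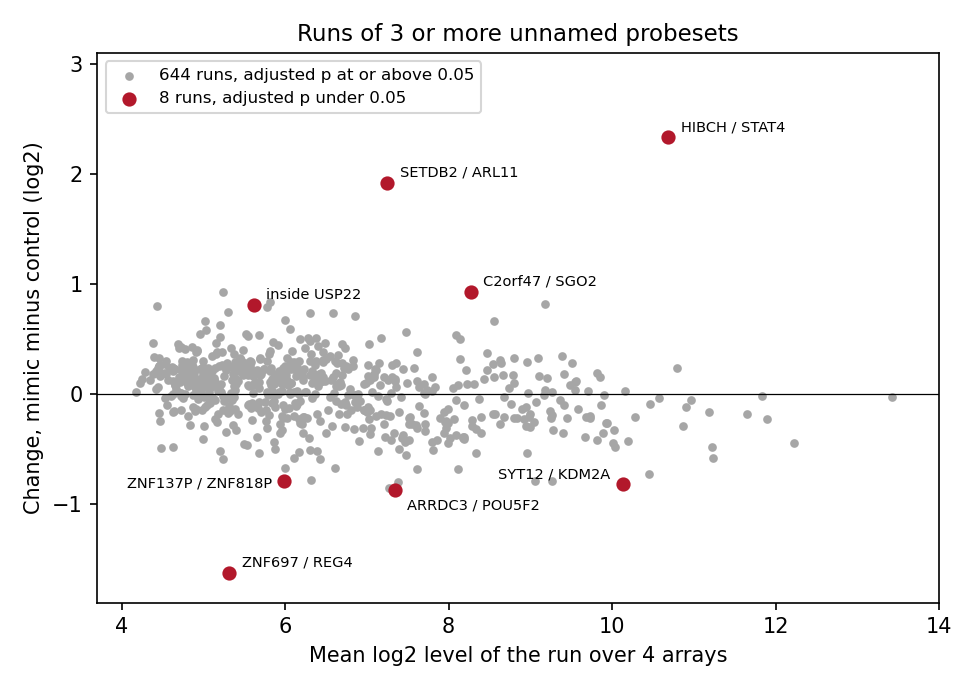
Difference between mimic and control (log2) against mean log2 level over 4 arrays, 1 point for each of 652 runs of unnamed probesets. The 8 runs past limma's adjusted p of 0.05 are red and are marked by their flanking genes; 3 of them had a difference of 1 or more in size, and 91.0% of all runs lay within 0.5.

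The run numbered between HIBCH and STAT4 was higher with the mimic in all of its 23 probesets. HIBCH encodes an enzyme of valine breakdown, and STAT4 a transcription factor of cytokine signalling. The run's mean level was 11.84 and 11.86 with the mimic and 9.48 and 9.55 with the control. The groups lay far apart beside the gap between arrays of a group, and the difference was 2.33 (SE 0.119, adjusted p = 0.00100 in limma), or 5.04-fold. Both mimic arrays were above both control arrays in 23 of 23 members, where 21.0% of all probesets had that order. The flanking genes themselves gave 0.03 for HIBCH and 0.05 for STAT4. STAT4 averaged 4.50 with the mimic and 4.44 with the control, within the range of the background genes. Its flat difference therefore says little, while HIBCH averaged 7.30 and 7.27.

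Within that run the differences ran from 1.24 to 3.80, and 20 of the 23 members passed alone. The member with the largest difference, 2592283, read 11.91 and 11.97 with the mimic and 8.33 and 7.95 with the control. Its difference of 3.80 (SE 0.215, adjusted p = 0.00430) was 13.9-fold. Member 2592279 followed at 2.82 (adjusted p = 0.00616) and 2592284 at 2.78 (adjusted p = 0.00630). Members 2592330, 2592289, 2592276, 2592324 and 2592286 gave 2.64, 2.57, 2.56, 2.53 and 2.53. The 3 members that did not pass were 2592309, at 2.16 with the widest spread between its control arrays (9.01 and 9.97), 2592319 at 2.05 and 2592332 at 1.24. The last of these was also the dimmest, at a mean level of 5.63. Over the 23 members the difference and the level correlated at r = 0.0948, a description of probesets that share the same 4 arrays. Member 2592283 was the only unnamed probeset called without mimic array 2.

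The run between SETDB2, a histone methyltransferase, and ARL11, a small GTPase, was the second to rise. Its 10 probesets averaged 8.14 and 8.28 with the mimic and 6.19 and 6.39 with the control, a difference of 1.92 (SE 0.140, adjusted p = 0.00378). The mimic arrays were above the control arrays in 10 of 10 members, where 21.0% of all probesets had that order. SETDB2 gave -0.00 and ARL11 gave 0.03. Both averaged within the range of the background genes, with control means of 5.75 and 4.72, so these flat differences say little. Members differed from 0.35 to 3.36, and the groups were closest in 3489484, the dimmest member and first in the run, at 4.44 and 4.57 against 4.12 and 4.19. The called member with the largest difference, 3489507, read 7.22 and 8.03 against 4.57 and 5.03, a difference of 2.82 (SE 0.342, adjusted p = 0.0476). Its neighbour 3489506 had a larger difference, 3.36, but its control arrays read 3.55 and 4.74, and it did not pass (adjusted p = 0.0570). The other 4 called members gave 1.54 to 1.92.

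The run between ZNF697, a zinc finger gene, and REG4, a secreted lectin gene, fell. Its 14 probesets averaged 4.62 and 4.38 with the mimic and 6.11 and 6.15 with the control, a difference of -1.63 (SE 0.138, adjusted p = 0.00718). Both mimic arrays were below both control arrays in 12 of 14 members, where 26.8% of all probesets had that order. Members 2431033, 2431042, 2431044, 2431047, 2431050 and 2431059, all among the 12, averaged below the level required for testing with the mimic. They were tested only because of their control values, so the filter favoured falls among them. The count of 12 and the run's difference rest partly on this selection. ZNF697 gave -0.03 and REG4 gave 0.28. Both averaged within the range of the background genes, with control means of 4.68 and 4.71, so these differences say little. Member 2431051 read 4.67 and 3.92 against 7.30 and 7.42, the largest fall of any called member at -3.06 (SE 0.298, adjusted p = 0.0238). Member 2431042 read 3.81 and 3.66 against 6.38 and 6.95, a difference of -2.93 (adjusted p = 0.0168). Members 2431038 and 2431047 gave -2.66 (adjusted p = 0.0112) and -2.12 (adjusted p = 0.0327). All 4 were at or below 4.67 on both mimic arrays, within the range of the background genes, so their falls may be understated.

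One bright member of that run read alike in both groups. This member, 2431041, at a mean level of 9.44, read 9.46 and 9.36 with the mimic and 9.58 and 9.36 with the control, a difference of -0.06 (adjusted p = 0.910). Its groups overlapped, while the members numbered just before and just after it, 2431038 and 2431042, both fell. Whether 2431041 reads the same transcript as its neighbours was not tested.

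**Figure D3:**
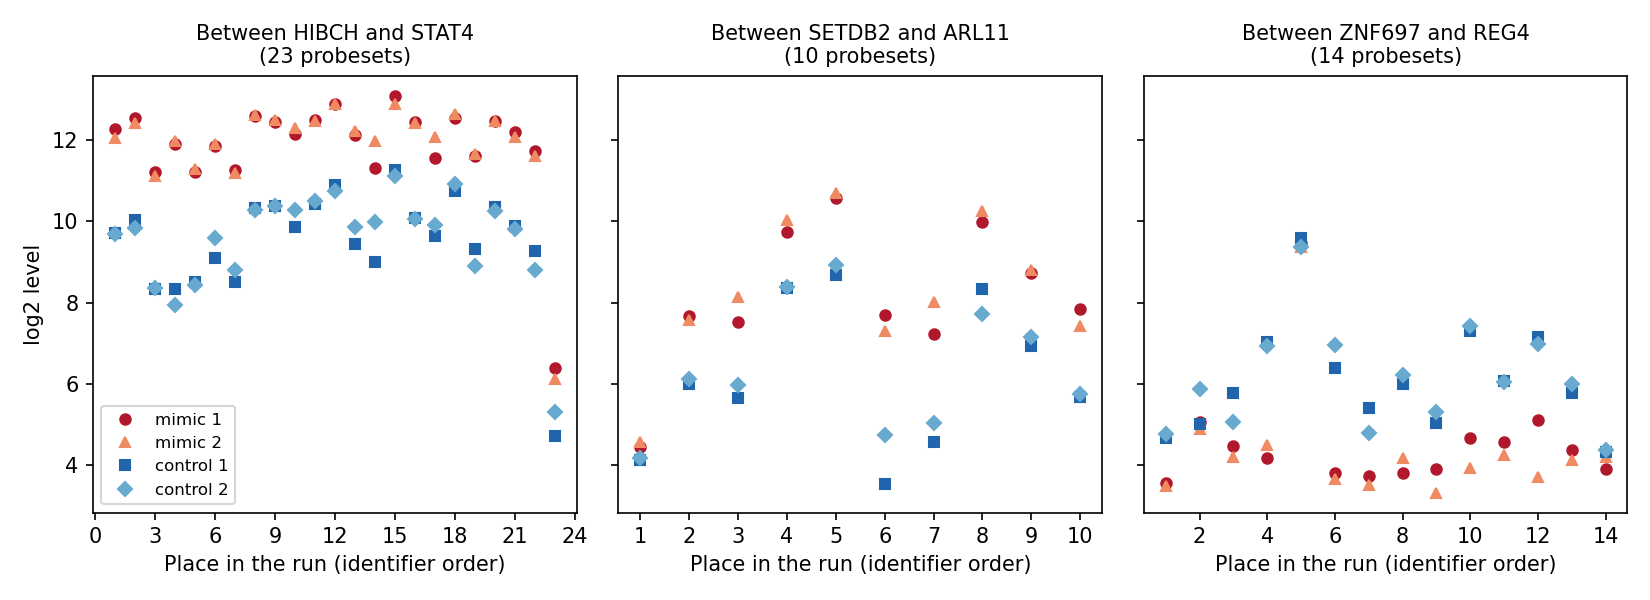
Log2 level of every probeset on every array, in identifier order, for the 3 runs with the largest differences. Circles and triangles are the 2 mimic arrays and squares and diamonds the 2 control arrays; the mimic points lie above the control points at all 23 places between HIBCH and STAT4, and below them at 12 of 14 places between ZNF697 and REG4.

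The other 5 called runs changed less, and they are named here after their values were seen. Over all probesets, both mimic arrays were above both control arrays in 21.0% and below them in 26.8%. The run between C2orf47 and SGO2, a gene of chromosome cohesion, rose by 0.93 (SE 0.122, adjusted p = 0.0316), with the mimic arrays higher in 13 of 14 members. The genes beside it gave 0.31 and -0.35. A run of 10 members inside USP22 rose by 0.81 (adjusted p = 0.0419). Its member 3749680 was tested only because of its mimic values. The run between ARRDC3, an arrestin family gene, and POU5F2 fell by 0.88 (adjusted p = 0.0488), with 12 of 13 tested members lower, while ARRDC3 gave 0.26. The run between SYT12 and KDM2A, a histone demethylase gene, fell by 0.82 (adjusted p = 0.0423) in 6 of 6 members, while KDM2A gave 0.39. The run between ZNF137P and ZNF818P fell by 0.79 (adjusted p = 0.0492) over 4 tested members of 9. Of these, 3840566 gave 0.18 with overlapping groups. ZNF137P itself, read by 1 probeset, rose by 0.91 (adjusted p = 0.0371), at 4.88 and 4.75 against 3.96 and 3.84. Its control values were below the testing level of 4.08. It was tested only because of its mimic values, so the filter favoured a rise. All 5 of these runs missed the threshold without mimic array 1 and without mimic array 2, where the highest adjusted p was 0.252, and the ZNF137P run also missed it without control array 2 (adjusted p = 0.0508) and gave -0.33 when its members below 4.08 were kept.

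None of the 10 longest runs passed. They held 86 to 212 members each, and all had a positive difference, from 0.08 to 0.51, with a lowest adjusted p of 0.132 in limma. The longest, 212 members between GDI2 and ANKRD16, gave 0.42 (SE 0.141, adjusted p = 0.191) over 185 tested. The next, between HNRNPC, a gene of a nuclear RNA-binding protein, and SUPT16H, averaged 6.67 and 6.57 against 6.22 and 6.02 over 132 tested members. Its difference was 0.51 (SE 0.135, adjusted p = 0.132). In 77 of those members the mimic arrays were above the control arrays, where 21.0% of all probesets had that order.

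The members called singly stood among neighbours that mostly did not follow them. Member 2406307, between the proteasome subunit gene PSMB2 and C1orf216, read 7.29 and 7.03 against 5.10 and 5.18, a difference of 2.02 (adjusted p = 0.0243), while the 50 others of its run had a median of 0.30. Member 3127986, between ENTPD4 and the hormone gene STC1, gave 1.97 beside a median of 0.22 over 5 others. Member 2369627, between SOAT1 and TDRD5, read 5.06 and 5.10 against 3.44 and 3.58, a difference of 1.57, beside -0.03 over 7 others. Its control values too were below the testing level, and it was tested only because of its mimic values. On the lower side, 2482932, between the spectrin gene SPTBN1 and CFAP36, read 6.19 and 6.09 against 7.62 and 7.76, a difference of -1.55 (adjusted p = 0.0457), beside a median of -0.15 over 8 others.

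The other called falls outside the ZNF697 run were also single. Member 2520363, between NAB1 and NABP1, read 4.29 and 4.00 against 6.48 and 6.05, a difference of -2.12 (adjusted p = 0.0384). The 27 others of its run ran from -3.07 to 1.01, with a median of -0.25. The lowest of them, 2520361, read 6.11 and 5.08 against 9.18 and 8.13 and did not pass (adjusted p = 0.0999). Member 3906859, between OSER1 and FITM2, a gene of lipid droplet formation, read 6.14 and 5.68 against 7.90 and 8.30, a difference of -2.19 (adjusted p = 0.0452). The 1 other member of its stretch gave -1.61, and FITM2, read by 1 probeset, fell by 1.24 (adjusted p = 0.0323), while OSER1 gave 0.01.

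Neighbours that themselves rose flanked 3 of the single calls. HLA-F, a nonclassical MHC class I gene, rose by 3.71 on the log2 scale (adjusted p = 0.000544). Member 2901053, between HLA-F and HCG9, read 9.43 and 8.98 against 7.19 and 6.80, a difference of 2.21 (adjusted p = 0.0430), and the 3 others of its run had a median of 0.25. Member 2421927 stood alone between the interferon-induced GTPase genes GBP1 and GBP2. It read 5.44 and 5.13 against 3.51 and 3.25, a difference of 1.91 (adjusted p = 0.0400). Its control values were below the testing level of 4.08, so it was tested only because of its mimic values. Its fold may be understated. GBP1 and GBP2 gave 3.17 and 1.31, from control means of 3.54 and 4.05. Those means were also below 4.08, so the filter favoured rises in at least some of their named probesets. The other single call beside a gene that rose was inside TNFAIP3, described next.

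Members inside 1 gene gave 2 higher calls of 521, or 0.384% against 0.795% of all probesets, with a median difference of 0.18, against 0.05 for members between genes. By the count without p-values, 17 of them were higher by 1 or more, or 3.26%, and 5 lower, or 0.960%, beside 2.31% and 2.31% of all probesets. Their differences correlated less with the gene around them than those of named probesets did, though over different genes. Over 520 members inside a gene with a value, the member's difference and the gene's correlated at r = 0.348. The same correlation of 162444 named probesets with the other named probesets of their gene was 0.744. These points share the same 4 arrays, and members of a gene share that gene's value, as 79 of the 520 do in USP22. The 2 correlations cover different sets of genes, so the gap between them was not tested. For 583 runs between genes, the correlation with the mean of both flanking genes was -0.011, and for 15717 genes with the genes before and after them it was 0.187.

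TNFAIP3, a brake on NF-kB signalling also called A20, rose by 2.80 in its 16 tested named probesets (adjusted p = 0.00101) and held 3 tested members. Member 2927517 read 5.88 and 6.88 against 2.85 and 3.32, a difference of 3.30 (SE 0.388, adjusted p = 0.0435), and its control values were below the testing level, so it was tested only because of its mimic values. Member 2927516, next to it, read 5.58 and 5.44 against 4.26 and 3.90, a difference of 1.43 (adjusted p = 0.0854). Member 2927523 read 4.36 and 4.16 against 3.99 and 4.00, a difference of 0.27. All of 2927523's values were in the range of the background genes.

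The 3 other genes that rose and held members inside them were SP100, a component of nuclear bodies, TRIM38, a ubiquitin ligase, and RDH16, a retinol dehydrogenase. SP100 rose by 2.82. Its members gave 2.29 (adjusted p = 0.0567), 1.63 (adjusted p = 0.0697) and 0.62, and none passed. The first of them, 2531424, read 7.50 and 7.27 against 5.45 and 4.74, so the groups did not overlap. TRIM38 rose by 2.08 and its member gave 0.92. RDH16 rose by 1.74 and its member, 3458208, read 3.71 and 3.98 against 4.85 and 4.16, a difference of -0.66. Over these 4 genes the 8 members had a median difference of 1.17 at a median level of 4.76, and the 58 named probesets 2.51 at 6.04. Members 2927517, 2927523 and 2531425 averaged 3.08, 3.99 and 3.84 with the control, and 3458208 averaged 3.84 with the mimic. These means were below the level required for testing. The filter therefore favoured rises in 2927517, 2927523 and 2531425 and a fall in 3458208. The median of 1.17 includes these members and was smaller without a filter, so it depends on that choice. In GK5 and MRPL30, the genes that fell and held a member, the members gave -0.10 and -0.15, beside a median of -0.94 over their 27 named probesets.

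**Figure D4:**
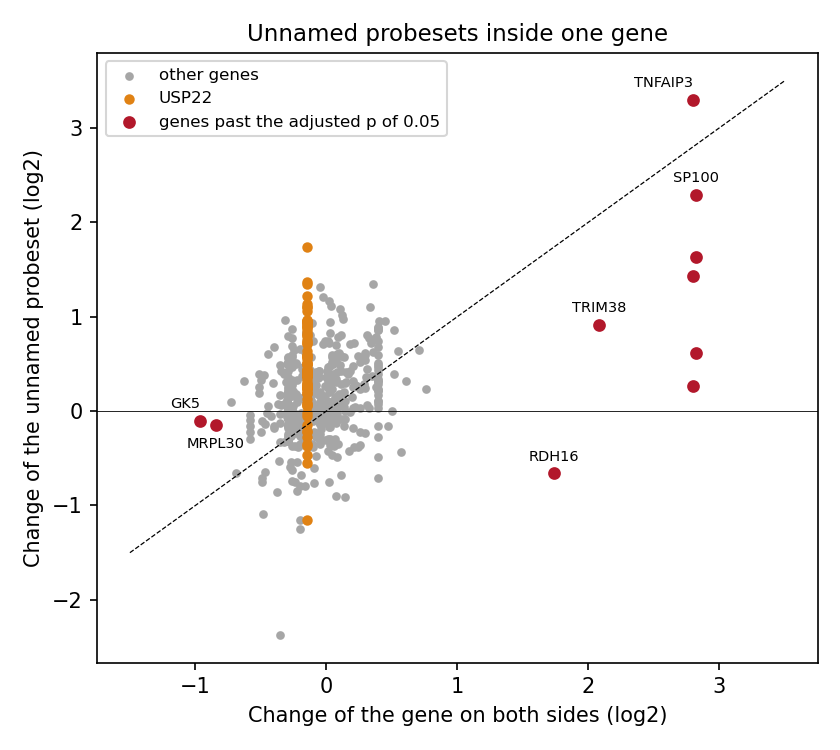
Difference of each of 520 unnamed probesets inside a gene against the difference of that gene's named probesets (both mimic minus control, log2); the dashed line marks equal values. Members in genes past limma's adjusted p of 0.05 are red and those in USP22 orange; 7 of the 8 members in the 4 genes that rose lie below the line, and the USP22 column runs from -1.15 to 1.74 over a gene at -0.14.

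USP22, which encodes the deubiquitinase of a transcription coactivator complex, held more members than any other gene, 84 in all with 79 tested. They are described after their values were seen. Their median difference was 0.43, 68 of 79 were above 0, and the mimic arrays were above the control arrays in 45 and below them in 3. Of all probesets, 21.0% and 26.8% were apart in these directions. USP22's 20 named probesets had a median of -0.13, with 2 higher and 7 lower in that order, and the gene as a whole gave -0.14 (adjusted p = 0.547). The members were also dimmer, at a median level of 6.06 against 9.78. They formed 9 runs with differences of 0.18 to 0.81. The run of 10 that passed averaged 5.99 and 6.05 against 5.20 and 5.22. The run of 17 before it gave 0.67 (adjusted p = 0.0826). Member 3749674 was called alone, with 7.57 and 7.46 against 5.73 and 5.82, a difference of 1.74 (adjusted p = 0.0309).

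Other genes with many members did not share that gap throughout. PARK7, which encodes a redox-protective protein, held 29 tested members with a median of 0.03 and gave -0.29 itself. FNTA, a farnesyltransferase subunit gene, held 27 with a median of 0.31 and gave 0.40. NONO, a gene of a nuclear RNA-binding protein, held 24 with a median of 0.18 and gave -0.27. SNRNP200, a gene of a splicing helicase, held 13 with a median of -0.16 and gave -0.20.

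The gap between a member and its gene was tested directly, by fitting in limma each probeset minus the mean of the other named probesets of its gene. None of 520 members passed the adjusted p of 0.05, as for all probesets (0.00% of 162964). At an unadjusted p under 0.05 there were 105 members, or 20.2%, against 8.33% of all probesets, and 85 of the 105 were above their gene. Members inside the same gene were set against the same gene mean, and 79 of the 520 lay in USP22. They are therefore not separate departures, and a few genes may weigh heavily in these shares. The 4 smallest p-values belonged to 2927523 in TNFAIP3, at -2.53 from its gene (adjusted p = 0.161), 3458208 in RDH16 at -2.40 (adjusted p = 0.163), 3749674 in USP22 at 1.88 (adjusted p = 0.186) and 2927516 in TNFAIP3 at -1.37 (adjusted p = 0.326).

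Members inside genes had a positive median at low levels. It was 0.20 between 4.08 and 6, 0.27 from 6 to 8, 0.11 from 8 to 10 and -0.09 at 10 and above. Members between genes gave 0.13, 0.02, -0.02 and -0.06 in the same bins, and named probesets 0.04, -0.07, -0.06 and -0.06. The part of level in these differences was not tested.

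Pathway genes beside the members were taken from lists of known function. In limma, 1.48% of genes and runs together were called higher at an adjusted p of 0.05 and 0.782% lower. Of 115 interferon-stimulated genes, 104 had a value and 91 were called higher with the mimic. Members were counted next to a gene where its probeset was their nearest named neighbour on either side, at any distance in identifiers. Member 2901053, for example, was numbered 54 from HLA-F, and 3737621 was 206 from RNF213. The 114 tested members numbered inside or next to 15 of these genes had a median difference of 0.24. Of these, 2 passed, both higher, which were 2901053 and 2421927, where 0.795% of all probesets were called higher. The largest group of them, 51 members between RNF213, an interferon-induced ubiquitin ligase gene that gave 1.76, and CHMP6, had a median of 0.29 and ran from -0.98 to 0.82. Next to 8 DNA replication genes, a list in which 4 of 41 genes were called lower, 38 tested members had a median of 0.00. Next to G2/M genes, 79 members had a median of 0.05. Next to NF-kB and inflammatory genes, 26 members had a median of 0.07 and 1 passed, 2927517. These counts of called members are too small to set against the share of all probesets. Next to cytosolic ribosomal protein genes, 78 members had a median of 0.05, and next to small nucleolar RNA host genes and long noncoding RNA genes, 30 members had 0.14. For comparison, the median over all unnamed members was 0.05.

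Of the 31 members beyond the last named probeset, 30 differed below 0, with a range of -0.40 to 0.18 and a median of -0.18. In 20 of the 31 members the mimic arrays were below the control arrays, where 26.8% of all tested probesets had that order. Their levels ran from 3.87 to 11.90. None of the 30 tested passed in limma, and 0 had an unadjusted p under 0.05. Their identifiers were at least 136 apart, unlike those in the runs, and what they read was not analysed here.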

How the data were processed

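The authors deposited log2 values, 1 per probeset and array; the submitters' processing notes list RMA, Partek and hg18 without versions. The arrays' distributions differ, with interquartile ranges of 4.18, 4.32, 4.25 and 4.52. Symbols from GEO's platform annotation were updated through a RefSeq table; 190058 were current, 25769 were synonyms and 953 were kept as listed. Nearest probesets with exactly 1 symbol gave each member's place. Probesets, runs with genes, and departures were fitted separately in R 4.3.3 by limma 3.58.1 (lmFit, then eBayes; two-sided; 2 residual degrees of freedom), with Benjamini-Hochberg adjustment; SE is limma's moderated one. An exact permutation test of 2 against 2 arrays cannot go below 0.333 and was not used. The scripts were tested on simulated data.

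The members, lists and rules were chosen with earlier results of these data known. Named members were the 10 largest called increases, the called decreases, the 3 called runs with the largest differences, the 4 smallest departure p-values and any member next to CDK4, of which there were 0; others were named after their values were seen. Alternatives were the replicate block, normalization, the filter, limma's trend and robust options, the threshold, the rules for neighbours and runs, and each array left out. Depth has no meaning for arrays; their number limits the precision. No coordinates or probe sequences were used.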

Additional observations from a re-analysis of the deposited data

How the results depend on the processing

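No named member or run changed sign under any alternative that gave it a value, but the balance of calls did. With a replicate block, 1 member inside a gene was called higher and 1 lower, and 15 runs were called; it called 29 unnamed probesets and kept 26 of the 39 calls, losing among others 2431051 (adjusted p = 0.0569), 2482932 (adjusted p = 0.0844) and 3906859 (adjusted p = 0.102). The differences between replicates 1 and 2 of the groups correlated at r = 0.28 over all probesets, and the design text calls mimic and control samples paired without saying what a pair shares, so the number was kept out of the reported fit. With an intensity trend, 62 unnamed probesets were called higher and 84 lower, of which 58 and 84 between genes and 4 higher inside, and 37 runs, of which 13 were higher and 24 lower, against 4 and 4. At a threshold of 0.1 the counts were 55 higher and 26 lower, of which 50 and 26 between genes and 5 higher inside, and 26 runs. The robust fit called 1 inside higher. With neighbours required within 50 identifiers, 6 members between genes were called higher. Without a filter 42 runs were called. The median inside genes that rose was 0.41 without a filter, 1.60 with a filter at the table median, 0.33 with a trend and 0.77 at 0.1. The cause of these shifts was not tested, with 2 exceptions that hold by construction. A looser threshold admits more calls. The rule of neighbours within 50 only drops members from the same fit, among them the 20 called between HIBCH and STAT4, numbered 210 or more from HIBCH. Leaving out 1 array in turn gave 1 to 10 higher, 0 to 2 lower, 0 to 1 higher inside, 1 to 9 higher and 0 to 2 lower between genes, 3 to 39 runs and medians of 0.73 to 1.34 inside genes that rose and -0.94 to -0.12 inside genes that fell; a lone array was then assumed to vary like the other group. The 3 runs with the largest differences passed under every alternative that gave them a value, while the run beside ZNF137P missed the threshold with equal array medians, the robust fit and no filter, and the run beside ARRDC3 missed the threshold with the block, equal array medians, a filter at the table median and the robust fit. With runs of 2 or more members tested, 6 of the 8 runs passed. Signal near background limits the size of some changes: 5 of the 7 called falls end, and 7 of the 32 called rises start, within the range of the background genes.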
